A study of Mus musculus with 6 samples.

Results

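The phagocyte NADPH oxidase genes examined here were *Cybb*, *Cyba*, *Ncf1*, *Ncf4*, *Rac2* and *Nox4*, 6 of the 17441 genes listed in at least 1 of 6 mouse heart RNA-seq libraries. They were chosen by name, and each symbol was matched to its NCBI gene number in the expression tables. The libraries came from 12-week-old male mice on a C57BL/6 background, from cardiac tissue below the level of the ligature, taken 3 days after surgery. The groups were wild-type mice after a sham operation (WT sham), wild-type mice after myocardial infarction (MI) by ligation of the left coronary artery (WT MI), and *Card9* knockout mice with an equally ligated artery (*Card9* KO MI), with 2 libraries each. CARD9 is an adaptor protein of myeloid cells, and the knockout line was made in earlier work. Sham-operated *Card9* KO mice were not analysed here. The effects of genotype and of infarction therefore cannot be told apart where *Card9* KO MI is set against WT sham.

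The phagocyte NADPH oxidase passes electrons from NADPH across a membrane to oxygen and so makes superoxide, which neutrophils and macrophages release into phagosomes or outside the cell. Its catalytic part is a membrane heterodimer of gp91phox, also called NOX2 and encoded by *Cybb*, and p22phox, encoded by *Cyba*. In resting cells the regulators p47phox (*Ncf1*) and p40phox (*Ncf4*) stay in the cytosol, and they join the membrane part together with the GTPase RAC2 when the cell is stimulated. NOX4 is a catalytic homologue of non-phagocytic cells such as fibroblasts, smooth muscle cells and cardiomyocytes. It also pairs with p22phox, is active without the cytosolic regulators and releases mainly hydrogen peroxide.

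The members are protein-coding genes at separate places in the mm9 genome. *Cybb* lies at chrX:9012378-9064897 on the minus strand, *Cyba* at chr8:124948672-124956840 on the minus strand and *Ncf1* at chr5:134695923-134705495 on the minus strand. *Ncf4* (chr15:78075231-78093010, plus strand) and *Rac2* (chr15:78389599-78403213, minus strand) share a chromosome, and *Nox4* is at chr7:94394606-94547220 on the plus strand. The GRCm38.p6 promoter sequences of RefSeq held 4 of the 6 members (*Cybb*, *Cyba*, *Ncf1* and *Nox4*). The 250 bases before the start of *Cybb* (chrX:9469325-9469574, minus strand), *Ncf1* (chr5:134229626-134229875, minus strand) and *Nox4* (chr7:87246399-87246648, plus strand) are shown because these genes had different profiles over the 3 groups. Capitals mark an interferon-stimulated response element (ISRE)-like motif, searched on both strands as 2 copies of GAAA with any 2 bases between them.
*Cybb*: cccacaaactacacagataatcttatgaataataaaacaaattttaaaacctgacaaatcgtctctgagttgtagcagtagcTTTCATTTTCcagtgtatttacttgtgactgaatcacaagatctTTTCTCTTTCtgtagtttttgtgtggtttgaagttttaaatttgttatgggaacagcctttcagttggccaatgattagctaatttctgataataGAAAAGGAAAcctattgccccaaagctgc
*Ncf1*: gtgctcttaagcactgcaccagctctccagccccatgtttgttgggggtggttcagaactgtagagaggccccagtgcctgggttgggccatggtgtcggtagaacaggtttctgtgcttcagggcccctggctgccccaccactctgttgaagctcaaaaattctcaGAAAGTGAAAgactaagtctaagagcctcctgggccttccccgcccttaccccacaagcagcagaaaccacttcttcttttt
*Nox4*: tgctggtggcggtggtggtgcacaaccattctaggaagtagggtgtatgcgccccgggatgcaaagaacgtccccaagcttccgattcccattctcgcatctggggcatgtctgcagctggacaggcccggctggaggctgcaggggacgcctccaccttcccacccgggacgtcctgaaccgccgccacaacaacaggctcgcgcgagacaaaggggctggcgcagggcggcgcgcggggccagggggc

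The *Cybb* sequence held 3 of these matches, from 168 to 159 and from 124 to 115 bases before the start on the minus strand of the gene and from 29 to 20 bases before it on the plus strand. The *Ncf1* sequence held 1, from 82 to 73 bases before the start, and those of *Cyba* and *Nox4* held none of these letters. Of all 32851 promoters of the same length, 2.98% held at least 1 match. *Cybb* also had TGAATCA from 139 to 133 bases before its start, a match to the AP-1 letters TGANTCA, which were found in 6.75% of promoters. The letters GAGGAA (a PU.1 core, in 23.3% of promoters), TTGCNNAA (C/EBP, 9.56%) and GGGA and TTCC with any 2 bases between them (NF-kB, 1.21%) were in none of the 4 windows on either strand. In base composition the 3 printed promoters also differed, with a GC content of 34.0% for *Cybb*, 54.4% for *Ncf1* and 67.2% for *Nox4*, against a median of 52.4% over all promoters. A match of letters is a description and not a binding site, and a missing match does not show that a site is absent.

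Expression was given in FPKM, a fragment number scaled to transcript length and to the mapped fragments of the library. Levels can thus be compared between genes of a library, and between libraries only as shares of each library. From the spacing of low values the libraries held an estimated 2998000 to 4274000 fragments, fewest in WT sham. *Card9* itself was at 0.99 and 1.03 FPKM in WT sham hearts, 3.39 and 5.08 in WT MI hearts, and 9.85 and 6.94 in *Card9* KO MI hearts. The targeted gene thus had no less RNA in the knockout libraries than in the others. These libraries are named by their label, and each direction given for them rests on it. Cardiomyocyte markers had the largest sum among the cell type marker lists in all 6 libraries, with a summed FPKM of 22582 to 44494. Of the neutrophil markers, *Ly6g*, *Camp* and *Elane* were listed in no library.

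The 5 phagocyte subunits rose together in WT MI hearts, 3.24-fold to 6.67-fold in the group means of FPKM, whereas *Nox4* stayed near its detection limit. The catalytic subunit *Cybb* was at 4.54 and 3.37 FPKM in WT sham hearts, 11.9 and 13.72 in WT MI hearts, and 24.87 and 23.39 in *Card9* KO MI hearts. The groups did not overlap and stood in the order WT sham, WT MI, *Card9* KO MI. Its partner *Cyba* was the most abundant member in every library, at 25.17 and 27.6 in WT sham hearts, 85.08 and 100.54 in WT MI hearts, and 147.65 and 95.36 in *Card9* KO MI hearts. Both infarcted groups lay above WT sham, but the second *Card9* KO MI library fell between the WT MI libraries.

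Among the cytosolic subunits, *Ncf1*, whose product p47phox carries the phosphorylation sites that start assembly, was at 3.24 and 3.38 FPKM in WT sham hearts, 21.78 and 18.45 in WT MI hearts, and 25.76 and 20.63 in *Card9* KO MI hearts. *Ncf4*, whose product binds phosphatidylinositol 3-phosphate on phagosomes, had 2.61 and 1.14, 11.57 and 9.63, and 13.75 and 9.83 in the same order. The GTPase gene *Rac2*, largely restricted to blood cells, had 2.46 and 2.8, 17.93 and 17.15, and 22.95 and 15.98. For these 3 genes every infarcted library exceeded both WT sham libraries, while the ranges of WT MI and *Card9* KO MI overlapped. The first *Card9* KO MI library was the highest for each of them.

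*Nox4* was at 0.54 and 0.28 FPKM in WT sham hearts, 0.56 and 0.79 in WT MI hearts, and 2.11 and 1.85 in *Card9* KO MI hearts. By the length of its longest coding transcript these levels correspond to about 3.15 to 11.6 fragments in WT sham and WT MI libraries and to 33.8 and 28.6 in *Card9* KO MI, where a count of 3 was taken as the floor. The *Card9* KO MI libraries were the only ones above 1 FPKM, and *Nox4* passed the filter of at least 1 FPKM in at least 2 libraries solely because of them.

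**Figure D1:**
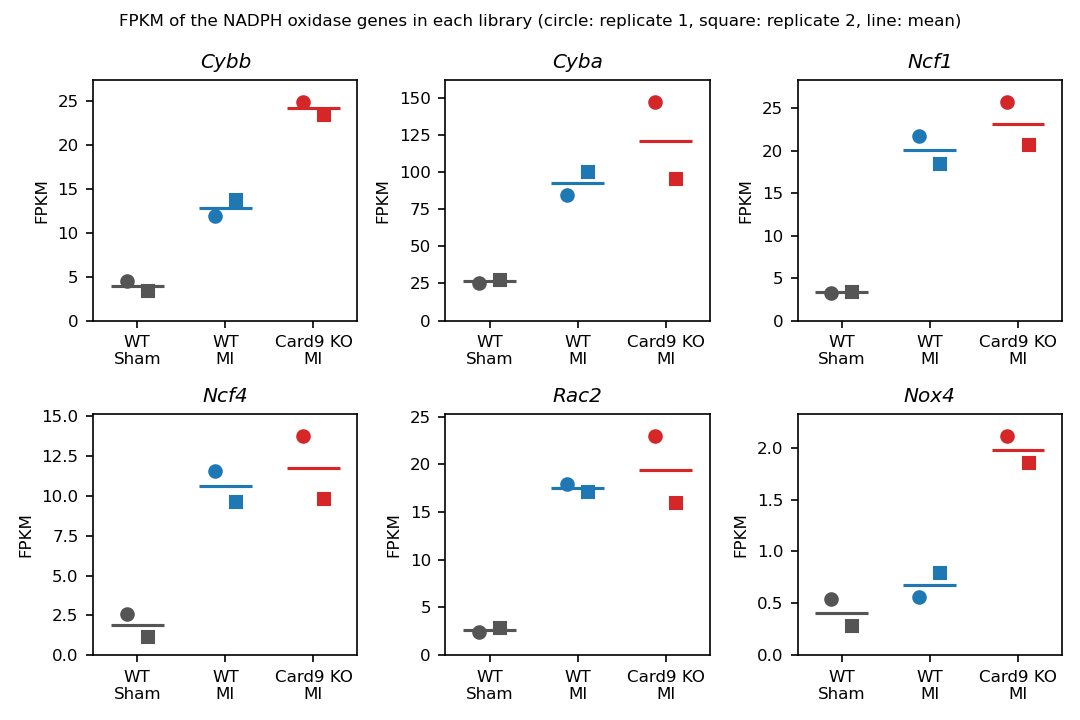
FPKM of the 6 genes (y axes, each from 0) in the 2 libraries of each group (x axis), with circles for replicate 1, squares for replicate 2 and lines for the group mean. *Cybb* and *Nox4* have both *Card9* KO MI libraries above both WT MI libraries, and the other 4 genes have overlapping infarcted groups.

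Infarction in WT mice was compared with sham surgery to show which subunits changed with the injury. In limma on log2(FPKM + 1), 5 of the 6 genes rose at a Benjamini-Hochberg adjusted p below 0.05, where 27.7% of the 13120 genes tested rose. Among them *Rac2* rose by 2.35 (standard error 0.18, limma adjusted p = 0.00011) and *Ncf1* by 2.29 (standard error 0.15, limma adjusted p = 5.9e-05) on the log2 scale. The rise was 2.06 for *Ncf4* (standard error 0.27, limma adjusted p = 0.001), 1.77 for *Cyba* (standard error 0.19, limma adjusted p = 0.00044) and 1.49 for *Cybb* (standard error 0.16, limma adjusted p = 0.00038). The median log2 fold change was 1.91 over the 6 genes and 0.19 over all genes tested. *Nox4* had a log2 fold change of 0.25 (95% interval −0.29 to 0.79, limma adjusted p = 0.43). All 6 genes, *Nox4* included, had both WT MI libraries above both WT sham libraries, which held for 48.3% of the genes tested. For *Nox4* this rested on 0.56 FPKM in a WT MI library against 0.54 in a WT sham library, about 8.47 and 6.38 fragments. Upper-quartile scaling of the libraries moved the split of calls over all genes from 3637 higher and 1232 lower to 2454 and 2351, and the 5 genes were called higher under both.

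*Card9* KO MI was compared with WT MI, the comparison that bears on the role of CARD9 in the infarcted heart. *Cybb* was the single member called, in the libraries labelled *Card9* KO MI 1.88-fold higher in the group means, with a log2 fold change of 0.87 (95% interval 0.50 to 1.23, limma adjusted p = 0.049). Over all genes tested, 0.816% were called higher. This call was marginal, since it was lost in 11 of 16 alternative analyses, including each one that left out a library (limma adjusted p = 0.051 to 0.29), although its log2 fold change stayed between 0.71 and 0.96. *Nox4* was 2.93-fold higher in the group means, with a log2 fold change of 0.83 (95% interval 0.29 to 1.38), and did not pass (limma adjusted p = 0.12). It was tested only because of its level in *Card9* KO MI, so this interval is no independent support for a difference. The size also depended on the added FPKM, with 1.44 for an added 0.1 and 0.3 for an added 5. For *Cybb* both *Card9* KO MI libraries lay above both WT MI libraries, as they did for 30.8% of all genes tested. *Nox4* had the same order but is not counted, since passing the filter only through these libraries fixed that order in advance.

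The other subunits gave no call in this comparison, and their intervals still allowed differences of either sign. For *Cyba* the log2 fold change was 0.36 (95% interval −0.09 to 0.81, limma adjusted p = 0.35) and for *Ncf1* it was 0.19 (95% interval −0.16 to 0.55, limma adjusted p = 0.53). *Ncf4* had 0.13 (95% interval −0.50 to 0.76, limma adjusted p = 0.84) and *Rac2* 0.12 (95% interval −0.30 to 0.54, limma adjusted p = 0.76). Without the first *Card9* KO MI library the estimates of *Ncf4* and *Rac2* turned to −0.09 and −0.13. Without that library the estimate for *Cyba* was 0.04, and without the second one it was 0.67.

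The 5 phagocyte subunits were called higher in libraries with the *Card9* KO MI label than in WT sham, where 34.8% of all genes were called higher. For them both libraries also lay above both WT sham libraries, as in 51.6% of all genes. This comparison shares its libraries with the other two, so its values are given only side by side with theirs. The log2 fold changes were 2.35 for *Cybb*, 2.13 for *Cyba*, 2.48 for *Ncf1*, 2.18 for *Ncf4* and 2.48 for *Rac2*, each with a limma adjusted p of 0.00046 or less. *Nox4*, which was tested only because of its level in these libraries and is not counted here, was higher by 1.08 (95% interval 0.54 to 1.63, limma adjusted p = 0.0065), a size that depends on the added FPKM of 1 because its WT sham level lies below that constant.

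**Figure D2:**
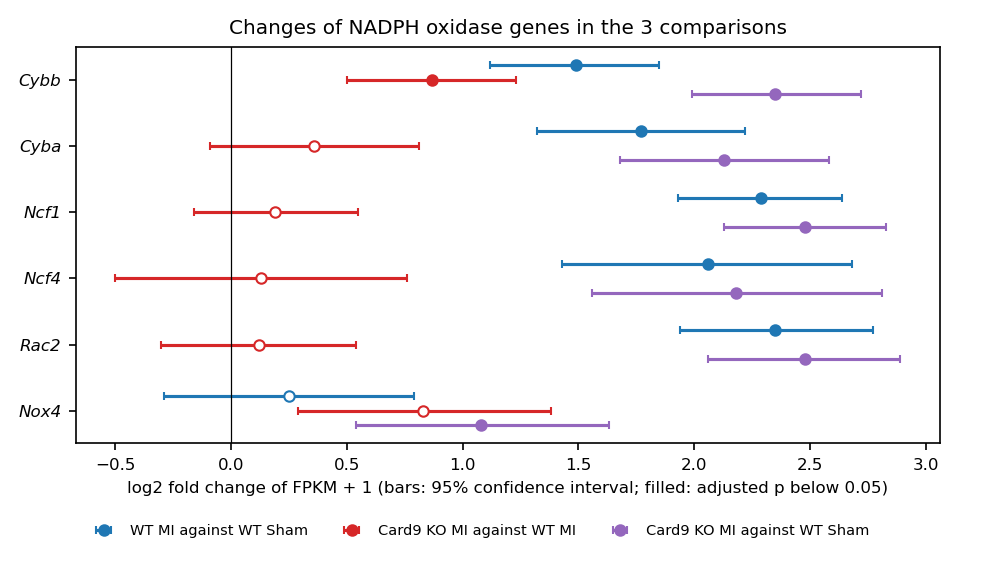
Log2 fold change of FPKM + 1 (x axis) with its 95% confidence interval for the 6 genes (y axis) in the 3 comparisons, with filled points for an adjusted p below 0.05. In *Card9* KO MI against WT MI the interval of *Cybb* runs from 0.50 to 1.23, and those of *Cyba*, *Ncf1*, *Ncf4* and *Rac2* include 0.

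Because FPKM is relative to gene length, the balance of subunits could be read within each library. In WT sham, *Ncf1* had 0.714 and 1.0 times the FPKM of *Cybb*, in WT MI 1.83 and 1.34 times, and in *Card9* KO MI 1.04 and 0.882 times. *Rac2* to *Cybb* was 0.542 and 0.831, then 1.51 and 1.25, then 0.923 and 0.683, and *Ncf4* to *Cybb* was 0.575 and 0.338, then 0.972 and 0.702, then 0.553 and 0.42. For each of these cytosolic subunits both WT MI ratios lay above those of the other 4 libraries. These ratios share *Cybb* as denominator. In *Card9* KO MI against WT MI, 97.9% of the genes tested had a smaller log2 fold change than *Cybb*. A lower ratio in *Card9* KO MI than in WT MI is thus not particular to these subunits. How many other genes have the same order of ratios was not counted. The ratio of *Cyba* to *Cybb* had no such order, with 5.54 and 8.19 in WT sham hearts, 7.15 and 7.33 in WT MI hearts, and 5.94 and 4.08 in *Card9* KO MI hearts. The ratios are a description, and no test was run on them.

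**Figure D3:**
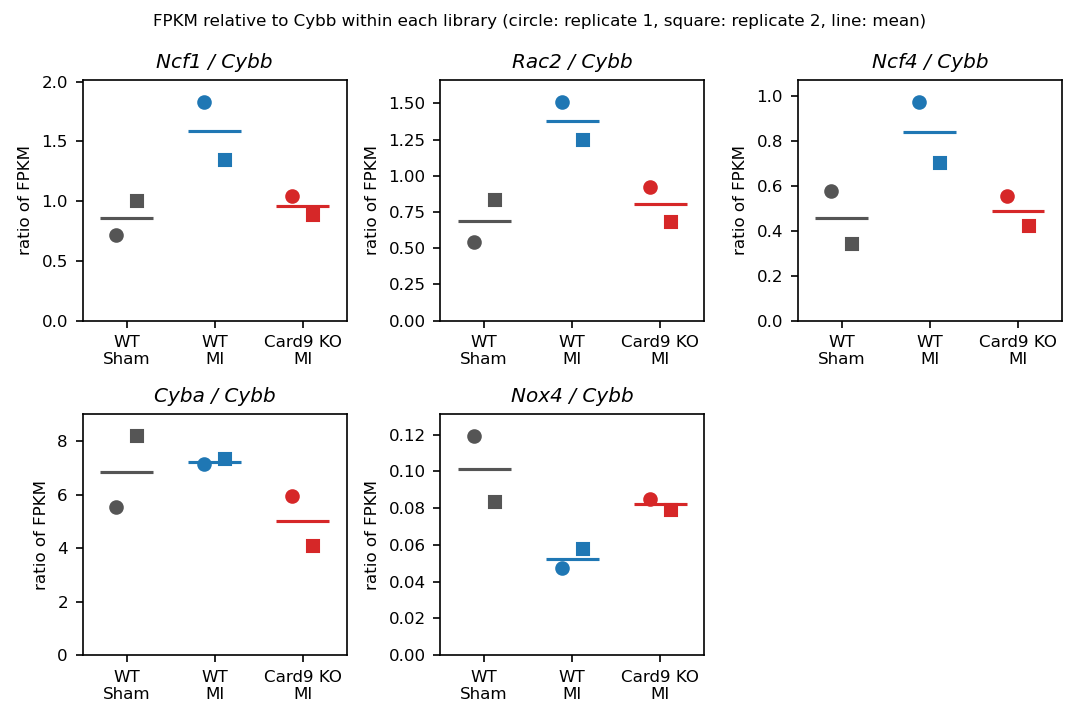
Ratio of FPKM to that of *Cybb* in the same library (y axes, from 0) for *Ncf1*, *Rac2*, *Ncf4*, *Cyba* and *Nox4*, with 1 point per library and a line for the group mean. The WT MI libraries have the highest ratios for the cytosolic subunits (for *Ncf1* 1.83 and 1.34) and the lowest for *Nox4* (0.0471 and 0.0576).

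The order of levels changed with these ratios. In both WT MI libraries it ran *Cyba*, *Ncf1*, *Rac2*, *Cybb*, *Ncf4*, *Nox4*, whereas *Cybb* stood above *Rac2* in both WT sham and both *Card9* KO MI libraries. *Cyba* was first and *Nox4* last in all 6. In WT sham the means of *Cybb* (3.96 ± 0.827, SD, n = 2), *Ncf1* (3.31 ± 0.099), *Rac2* (2.63 ± 0.24) and *Ncf4* (1.88 ± 1.04) were close, and the libraries of *Cybb* overlapped those of *Ncf1*. In WT MI *Ncf1* (20.1 ± 2.35) and *Rac2* (17.5 ± 0.552) stood above *Cybb* (12.8 ± 1.29), without overlap between their libraries, and *Ncf4* (10.6 ± 1.37) did not overlap *Cybb* either.

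Genes with the most similar profiles were sought by the root mean square difference of centred log2(FPKM + 1) over the 6 libraries. *Ncf1* and *Rac2* were each the third nearest gene to the other among all genes tested (0.084), and the nearest to both was *Pla2g7*, a phospholipase of lipoproteins, at 0.05 and 0.052. *Cybb* was less close to them, with *Ncf1* at place 764 (0.394) and *Rac2* at 920 (0.431) of 13120 genes, against a median of 0.899 over all genes. Among its 5 nearest genes were *Ctsk*, a lysosomal collagenase (0.053), *Gatm* (0.056), *Tcirg1*, a subunit of the vacuolar proton pump (0.066), and *Ckap2* (0.096). For *Cyba* the nearest were *Zwilch*, *Tent5b*, *Snhg5* and *Mad2l1* (0.086 to 0.103), and for *Ncf4* *Abcc3*, *Psat1*, *Tcf19*, *Id2* and *Plau* (0.113 to 0.13). *Nox4* was nearest to *Spsb2*, *Mboat1*, *Fcrl1*, *Zup1* and *Lrrc75a* (0.059 to 0.096), and *Cybb*, the closest phagocyte subunit, was at place 9223.

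In whole tissue, fewer cells of a type and less RNA per cell cannot be told apart, so the levels were set beside those of leukocyte markers. The pan-leukocyte gene *Ptprc* (CD45) was at 2.54 and 3.15 FPKM in WT sham hearts, 12.8 and 13.08 in WT MI hearts, and 20.55 and 20.47 in *Card9* KO MI hearts. Its log2 fold change was 1.86 in WT MI against WT sham (limma adjusted p = 8.6e-05) and 0.63 in *Card9* KO MI against WT MI (limma adjusted p = 0.073). Relative to *Ptprc*, *Cybb* was at 1.79 and 1.07 in WT sham hearts, 0.93 and 1.05 in WT MI hearts, and 1.21 and 1.14 in *Card9* KO MI hearts, a range far narrower than that of its FPKM. *Ncf1* to *Ptprc* was 1.28 and 1.07, then 1.7 and 1.41, then 1.25 and 1.01, and *Rac2* to *Ptprc* 0.969 and 0.889, then 1.4 and 1.31, then 1.12 and 0.781. Both were highest in the WT MI libraries, unlike the remaining 2 subunits. *Cyba* to *Ptprc* was highest in WT sham, with 9.91 and 8.76, then 6.65 and 7.69, then 7.18 and 4.66. For *Ncf4* to *Ptprc* the WT sham values (1.03 and 0.362) spanned those of WT MI (0.904 and 0.736) and *Card9* KO MI (0.669 and 0.48).

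All 12 macrophage markers rose with infarction in WT mice, where 27.7% of all genes tested rose. Their summed FPKM was 424 and 363 in WT sham hearts, 1451 and 1857 in WT MI hearts, and 2965 and 2152 in *Card9* KO MI hearts. None of them was called in *Card9* KO MI against WT MI, where their median log2 fold change was 0.66. Per 100 FPKM of this sum, *Cybb* was at 1.07 and 0.929 in WT sham hearts, 0.82 and 0.739 in WT MI hearts, and 0.839 and 1.09 in *Card9* KO MI hearts. The higher level of *Cybb* in *Card9* KO MI thus came with a higher level of macrophage markers, and their part in it was not tested.

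Neutrophil markers had another profile. Of 11 markers, 8 were listed and 6 tested, and all 6 rose with infarction in WT mice, as did 27.7% of all genes tested. None was called in *Card9* KO MI against WT MI, where their median log2 fold change was −0.61. Their summed FPKM was 7.64 and 5.4 in WT sham hearts, 212 and 93.2 in WT MI hearts, and 59.8 and 46.7 in *Card9* KO MI hearts. Over the 4 infarcted libraries the sum and the ratio of *Ncf1* to *Cybb* stood in the same order. With the WT sham libraries included they did not. The second WT sham library (sum 5.4) had a ratio of 1.0, and the second *Card9* KO MI library (sum 46.7) had 0.882. The part of neutrophil RNA in that ratio was not tested. *S100a9*, *S100a8* and *Csf3r* made up most of the sum.

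*Nox4* was set beside markers of fibroblasts and mural cells. The 8 fibroblast markers summed to 512 and 489 FPKM in WT sham hearts, 1479 and 2003 in WT MI hearts, and 3188 and 3059 in *Card9* KO MI hearts, and 3 of them (*Postn*, *Col1a1* and *Col1a2*) were called higher in *Card9* KO MI than in WT MI. The list was not uniform there, since *Pdgfra* had a log2 fold change of −0.52 (15.2 and 15.87 FPKM against 10.64 and 10.43) and *Dcn* one of −0.16, and neither was called. The 6 mural cell markers summed to 195 and 223, 283 and 262, and 523 and 499, with *Tagln* and *Acta2* called higher in *Card9* KO MI than in WT MI. Over all genes tested, 0.816% were called higher in that comparison. Per 100 FPKM of *Postn*, a matrix protein of activated fibroblasts, *Nox4* was at 2.19 and 1.66 in WT sham hearts, 0.305 and 0.328 in WT MI hearts, and 0.337 and 0.295 in *Card9* KO MI hearts. *Postn* had the largest ratio of *Card9* KO MI to WT MI means among the 8 fibroblast markers (2.95, beside 2.93 for *Nox4*). The similar values in the infarcted groups thus depend on this marker and would not hold for *Pdgfra* or *Dcn*. In WT MI against WT sham *Postn* rose by 3.30 on the log2 scale, and *Nox4* had 0.25 without a call. *Nox4* rested there on only about 3.15 to 11.6 fragments per library, so its change is known only roughly. Per 100 FPKM of *Acta2*, *Nox4* was at 1.55 and 0.516, then 0.477 and 0.813, then 0.837 and 0.774 in the same group order. These values overlapped between all groups. Cardiomyocyte markers, the other possible source named above, had their lowest sums in *Card9* KO MI (22582 and 26253). The part of these cells in the level of *Nox4* was not tested.

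**Figure D4:**
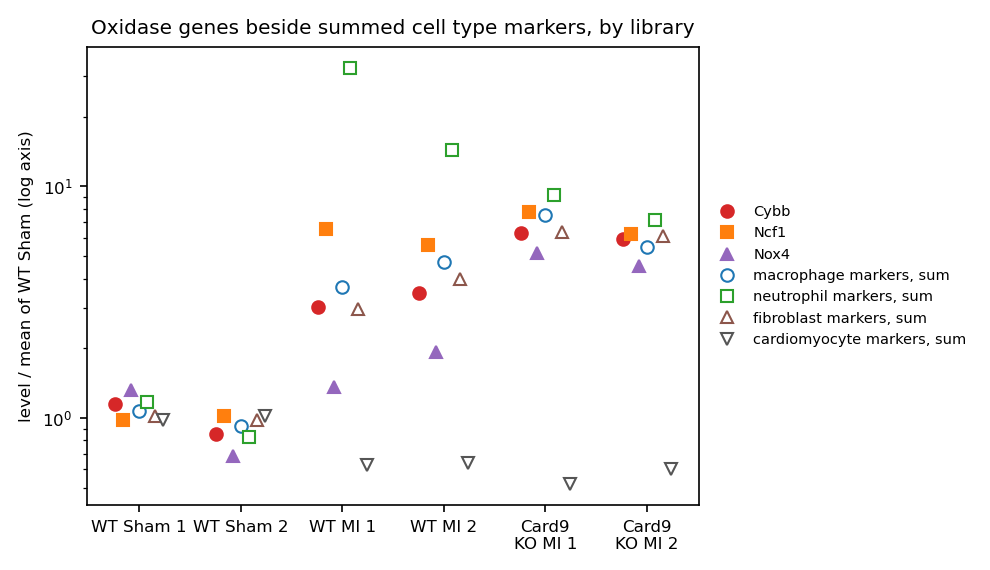
Level of *Cybb*, *Ncf1* and *Nox4* (filled) and summed FPKM of macrophage, neutrophil, fibroblast and cardiomyocyte markers (open) in each library, divided by the mean of the 2 WT sham libraries (y axis, log scale). Neutrophil markers are highest in WT MI (212 and 93.2 FPKM), whereas macrophage and fibroblast markers, *Cybb* and *Nox4* are highest in *Card9* KO MI.

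Other genes of the NADPH oxidase family were read from a list of 13, of which 10 were listed and 5 tested. In WT MI against WT sham 2 rose and none fell, and the list had a median log2 fold change of 0.40. With 27.7% of all genes tested rising, this count is no result about the list. *Cybc1*, the chaperone of the gp91phox and p22phox heterodimer, rose by 0.95 (limma adjusted p = 0.0044), with 3.55 and 4.1 FPKM in WT sham and 9.72 and 7.11 in WT MI. The ubiquitous *Rac1* rose by 0.59 (limma adjusted p = 0.0022), from 102.25 and 98.16 to 153.76 and 148.79 FPKM.

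As a share of *Rac1*, *Rac2* was at 0.0241 and 0.0285 in WT sham hearts, 0.117 and 0.115 in WT MI hearts, and 0.131 and 0.101 in *Card9* KO MI hearts. *Rac3* and *Rap1a* were not called in any comparison, and *Poldip2*, whose product binds p22phox and activates NOX4, was called lower in *Card9* KO MI than in WT sham alone (log2 fold change −0.38, limma adjusted p = 0.021). No gene of the list was called in *Card9* KO MI against WT MI, where its median was −0.07. *Noxo1*, *Duox1*, *Duox2*, *Duoxa1* and *Duoxa2* were at most 1.24 FPKM in any library and were not tested, and *Nox1*, *Nox3* and *Noxa1* were listed in none.

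Genes that assemble or activate the oxidase rose with its subunits in WT MI. Of 18 tested, 15 rose and none fell against WT sham (median log2 fold change 1.26), where 27.7% of all genes tested rose and 9.39% fell. None was called in *Card9* KO MI against WT MI (median 0.19). The 3 largest rises were those of *Dock2*, an exchange factor for RAC proteins (2.13), *Arhgdib*, which holds RAC proteins in the cytosol of leukocytes (2.12), and *Pla2g4a*, which frees arachidonic acid (2.01). *Nrros*, which limits the amount of gp91phox protein, rose by 1.85, and the voltage-gated proton channel gene *Hvcn1*, which balances the charge moved by the oxidase, by 1.22. The kinase genes *Prkca* and *Mapk14* and the exchange factor gene *Tiam1* were not called.

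Of 13 receptors that trigger the oxidase, 12 rose in WT MI against WT sham, where 27.7% of all genes tested rose. Their median log2 fold change was 2.22. The 3 largest rises were those of the integrin genes *Itgb2* (3.28) and *Itgam* (3.17), which form complement receptor 3, and of the antibody receptor gene *Fcgr1* (2.99), which is also among the macrophage markers. None was called in *Card9* KO MI against WT MI (median 0.01), but the single genes spread widely. The formyl peptide receptor gene *Fpr1* was not listed in the WT sham libraries and was at 2.81 and 2.89 FPKM in WT MI hearts and at 0.18 and 0.73 in *Card9* KO MI hearts (log2 fold change −1.43, limma adjusted p = 0.05 and not under the threshold). *Fpr2* had 4.63 and 3.37 FPKM in WT MI hearts and 0.72 and 1.51 in *Card9* KO MI hearts (log2 fold change −1.26, limma adjusted p = 0.073). Both formyl peptide receptor genes passed the filter on low values only because of the WT MI libraries, where they were high. Their values are therefore no independent support for a difference, and neither is their place among the 12 receptors that rose. *Fcgr1* had 13.32 and 18.88 FPKM in WT MI hearts and 29.05 and 32.41 in *Card9* KO MI hearts (log2 fold change 0.91, limma adjusted p = 0.059).

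Of 12 transcription factors with a known part in phagocyte oxidase expression, 9 were tested, and 6 rose in WT MI with a median of 0.86. Over all genes tested, 27.7% rose in that comparison. *Spi1*, which encodes PU.1, rose by 2.19, *Cebpd* by 1.68 and *Cebpa* by 1.62 on the log2 scale. In *Card9* KO MI against WT MI none was called (median 0.33). *Irf1* and *Irf8*, factors of the interferon response, had log2 fold changes of 0.80 (limma adjusted p = 0.059) and 0.62 (limma adjusted p = 0.22) there, and *Spi1* 0.33 (limma adjusted p = 0.44). *Irf1* was at 6.2 and 8.03 FPKM in WT MI hearts and at 13.6 and 12.48 in *Card9* KO MI hearts, and in WT MI, unlike the subunits, it did not lie above the sham libraries (9.86 and 8.73).

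Enzymes that handle superoxide and peroxide went both ways. Of 13 tested, 5 rose and 5 fell in WT MI against WT sham (median −0.14), where 27.7% of all genes tested rose and 9.39% fell. *Gpx1* (1.43), *Gpx3* (1.35) and *Prdx4* (1.34) rose most, and the mitochondrial peroxiredoxin gene *Prdx3* fell by 0.71, the mitochondrial superoxide dismutase gene *Sod2* by 0.46 and catalase (*Cat*) by 0.43. Under scalings that lower the median of all genes such small decreases would be larger and small increases smaller. None of the 13 was called in *Card9* KO MI against WT MI (median −0.16). *Mpo*, the enzyme that turns hydrogen peroxide into hypochlorous acid in neutrophils, was at 0.09 FPKM in 1 library and not listed in the other 5.

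**Figure D5:**
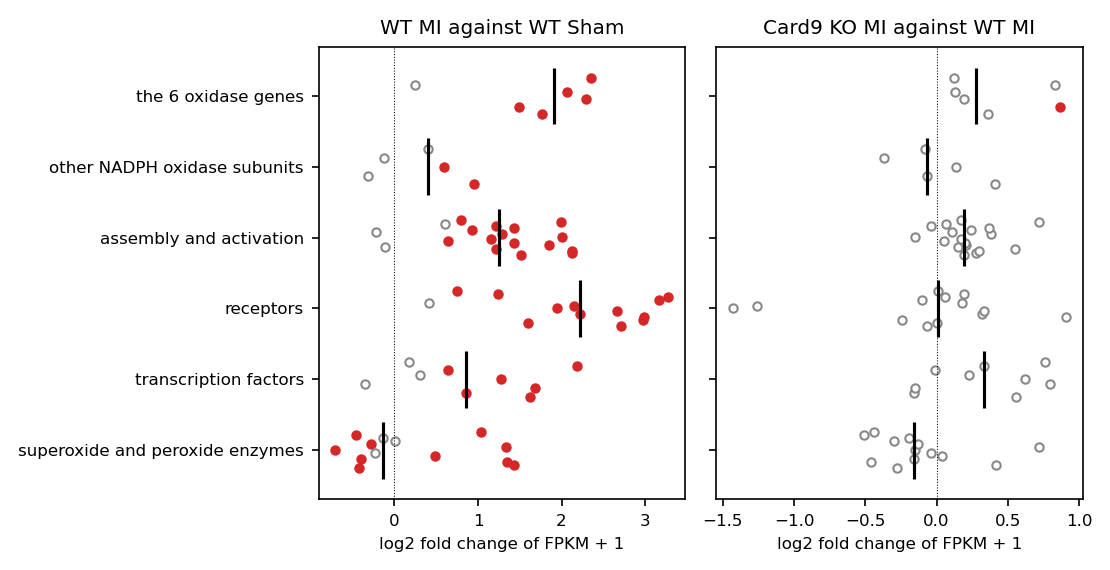
Log2 fold change of FPKM + 1 (x axis) of each tested gene in the 6 oxidase genes and 5 lists of related genes (y axis), in WT MI against WT sham (left) and *Card9* KO MI against WT MI (right), with red points for an adjusted p below 0.05, open grey points for the others and a black line for the median. On the left the medians run from −0.14 for the superoxide and peroxide enzymes to 2.22 for the receptors, and on the right *Cybb* is the only red point.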

How the data were processed

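RNA was isolated with TRIzol, and the authors made Illumina libraries of mRNA, ran them on a HiSeq instrument and aligned the filtered reads to mm9 (BWA, Bowtie2). Each deposited file gives the FPKM of the genes detected in 1 library, rounded to 2 decimals and keyed by NCBI gene number. Tool versions, the gene annotation, the use of strand and the treatment of reads shared by paralogs are not given in the sources used here. Being a share of the library, FPKM shifts for all genes when abundant ones change. Unlisted genes were set to 0. Groups and replicate numbers came from the labels, which do not say whether each library is 1 animal, so p-values measure the spread between these libraries, which may be technical.

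Genes that reached 1 FPKM in 2 or more libraries (13120) were tested with limma 3.58.1 in R 4.3.3 (lmFit, eBayes with trend, two-sided) on log2(FPKM + 1), with 3 groups in 1 fit, no covariates and Benjamini-Hochberg adjustment over all genes, and called at an adjusted p below 0.05. Fold changes on this scale understate those of low genes. The fit was tested on simulated data for *Card9* KO MI against WT MI. There it called 11 of 50 genes changed 1.5-fold, 36 of 50 changed 2-fold, and 10 unchanged genes. The changed genes were drawn only from those with a WT MI mean of at least 5 FPKM, so these rates do not cover lower genes such as *Nox4*. A gene without a call in that comparison may thus still differ. Fragments were estimated from 5147 genes with 1 coding transcript, and since only 66.4% to 70.1% of low values came out within 0.1 of a whole fragment, counts were not rebuilt and no count test was run. Fragment estimates cover counting error only. The members, gene lists and markers were chosen with earlier results of these data known. Genes named are the members, *Card9*, *Ptprc*, the other oxidase subunits, in each other list the called genes with the largest changes (up to 3 in each direction) and those a sentence on the oxidase needs, and the 5 nearest profiles. A few genes that this rule takes in are not reported here, and list counts leave them out. *Fpr1*, *Fpr2*, *Irf1* and the single markers named were chosen after their values were seen. The screen of the study (2-fold in FPKM means and a NOIseq-type probability of at least 0.8) was recomputed in Python 3.11.15. Positions are from GENCODE for mm9, promoters from RefSeq for GRCm38.p6. Each replicate number is shared between groups, but the deviations of same-numbered libraries correlated at 0.00244, −0.00828 and 0.0204, so the numbers were not taken as pairs.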

Additional observations from a re-analysis of the deposited data

How the results depend on the processing

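Over 18 results (6 genes in 3 comparisons) and 285 alternative values, 272 kept their direction and side of the threshold, 11 lost a call and 2 turned direction. The 11 were all *Cybb* in *Card9* KO MI against WT MI. In that comparison the number of members called was 0 with an added FPKM of 0.1 (limma adjusted p of *Cybb* = 0.069), with no filter (0.11), with upper-quartile scaling (0.054), with eBayes without trend (0.098), with a fold of at least 2 beside the adjusted p, and in the screen of the study. It was also 0 whichever library was left out (limma adjusted p = 0.051 to 0.29). Without the first *Card9* KO MI library *Ncf4* had −0.09 and *Rac2* −0.13, and over all libraries left out in turn their log2 fold changes ran from −0.09 to 0.35 and from −0.13 to 0.37. The cause was not tested. *Nox4* could not be tested at a mean FPKM of at least 5. It was called higher in *Card9* KO MI than in WT sham in the other fits and did not pass the screen of the study (probability 0.577). Except in the fit with no filter, it was tested only because of its level in *Card9* KO MI, so these calls are not counted as support. The log2 fold change of *Nox4* in that comparison ran from 0.37 to 2.07 over the analyses. With the replicate number as a block, 45 genes were higher and 26 lower in *Card9* KO MI against WT MI, *Cybb* had an adjusted p of 0.085 and no other call of a member changed, but the libraries share only a number. In that comparison the genes called higher (107) and lower (77) became 47 and 33 with an added FPKM of 0.1, 7 and 5 with no filter, 69 and 32 with only the groups compared, 40 and 18 without trend, and 61 and 35 at 2-fold or more. With an added FPKM of 5, 200 were higher, and at a mean FPKM of at least 5, 136 were lower. Leaving out 1 library gave 3 to 63 higher and 5 to 33 lower. In WT MI against WT sham the numbers higher (3637) and lower (1232) became 2288 and 2416 with quantile normalization, 1529 and 178 at 2-fold or more, and 965 and 142 in the screen. Upper-quartile scaling gave 2351 lower, and leaving out 1 library gave 2256 to 3487 higher and 627 to 1193 lower. In *Card9* KO MI against WT sham, 4569 higher and 1875 lower became 3040 and 3144 (upper-quartile scaling), 2841 and 3409 (quantile normalization), 2128 and 416 at 2-fold or more, and 1338 and 314 in the screen. The median log2 fold change of all genes in WT MI against WT sham was 0.19 in the deposited scaling, −0.03 after upper-quartile scaling and −0.07 after quantiles were equalised. Depth limits *Nox4* most, at about 3.15 to 11.6 fragments in 4 libraries.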
